A study of Mus musculus with 14 samples.

Results

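Fos, Egr1, Myc, Klf4 and Edn1 are growth response genes whose mRNAs are short-lived. They were followed here through their 3' ends, the positions at which an mRNA is cut and its poly(A) tail added. Ends were assigned to a gene when they lay on its strand within a fixed mm9 window. The 5 windows held 8 of the 33590 annotated poly(A) sites, and 0 windows held no site. The genes were chosen by how few of their reads were left in the actinomycin D libraries against the controls, so every value from those libraries is a description and carries no test. The gradient libraries were not used to pick them.

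The cells were 3T3 cells, an immortalised mouse fibroblast line. The assay, 2P-Seq, cuts poly(A) RNA lightly with RNase T1, primes cDNA on the tail and reads inward from it. There were 2 control libraries without drug and 4 libraries of cells given actinomycin D (10 µg/ml), a blocker of transcription, with a single library for each of the times 1, 2, 4 and 8 h. The other 6 libraries were fractions of a sucrose gradient, which sorts mRNAs by the number of ribosomes they carry. Nothing in the labels says that the controls were separate cultures, and no time or fraction was repeated. The p-values below are from the gradient and cover only the scatter of these particular libraries around a straight line over the fractions. That scatter may be technical, also includes any bend in a profile, and holds no replicate spread. The table pairs no site with a gene name and no mm9 annotation was used, so fibroblast markers were not checked and other growth response genes were not listed. Library totals ran from 1663346 to 11575417 counts, the lowest in the lightest fraction.

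Growth factors switch such genes on within minutes and the response ends quickly, in part because the mRNAs are degraded fast. Many of them carry AU-rich elements in the 3' UTR, runs built around the letters ATTTA, which recruit proteins that remove the poly(A) tail. Fos pairs with Jun proteins to form the AP-1 transcription factor. Egr1 is a zinc finger transcription factor induced by serum. Myc drives genes of growth and division. Klf4 is a Krüppel-like zinc finger factor linked to growth arrest and pluripotency. Edn1 encodes the precursor of endothelin-1, a secreted peptide that constricts vessels and stimulates fibroblasts, and is the only one of the 5 whose product leaves the cell.

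The AU-rich stretches are shown because they are the sequence feature for which such mRNAs are known. They are 30-base stretches of the 3' UTRs in GENCODE M21 transcripts, matched by gene symbol, written 5′ to 3′ as DNA, with each ATTTA in capitals. Each stretch is one with the most ATTTA in that 3' UTR, and none is shown for Egr1.
Fos: ttgtgttttcaATTTATTTAttaagatgga
Myc: ttaacagatttgtATTTAattgttttttta
Klf4: atatgtaatataaATTTAagcaaacttcta
Edn1: tagatATTTAtattcaaacaATTTAttcct
The Fos stretch (3' UTR positions 642 to 671 of 815) held 2 overlapping copies. The Edn1 stretch (933 to 962 of 1111) held 2 separate copies. The Myc stretch (226 to 255 of 442) and the Klf4 stretch (838 to 867 of 982) held 1 each.

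On the mRNA strand, overlaps counted, the whole 3' UTR held 4 ATTTA in Fos, 3 in Edn1, 2 in Myc, 2 in Egr1 and 1 in Klf4. Of 21020 annotated 3' UTRs, 1 per gene, 61.8% held at least 1. Length matters for such a count, so each was set beside 3' UTRs within 20% of its own length. At least as many ATTTA were found in 12.04% of those for Fos, 19.7% for Myc, 36.2% for Edn1, 57.2% for Egr1 and 73.9% for Klf4. The longer TATTTAT, which contains ATTTA, occurred 2 times in Fos and 1 time in Edn1, and was not among the letters of the other 3' UTRs; 25.5% of all 3' UTRs held it. These letters are a description of the annotated transcripts, and no binding was measured.

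Most reads of each gene came from 1 end. Fos had a single site on chromosome 12 (plus strand, 86818222, mm9) and Klf4 a single site on chromosome 4 (minus strand, 55540010). Egr1 had sites at 35024557 and 35024618 on chromosome 18 (plus strand), 61 nt apart. Edn1 had sites at 42403287 and 42403357 on chromosome 13 (plus strand), 70 nt apart. Myc had sites at 61821801 and 61821906 on chromosome 15 (plus strand), 105 nt apart. The nearest other site on the same strand was at least 17445 nt away, next to Egr1. In Egr1 and Edn1 the ends were uneven: the proximal Egr1 site had 4 and 7 counts in the controls and the proximal Edn1 site 6 and 0, under the 20 control counts required here for a decay value. These 2 sites were also the ones that did not pass the authors' read filter, which 6 of the 8 sites passed. The chromosome and strand of the window matched GENCODE's for 5 of 5 genes.

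The 5 mRNAs spanned a wide range of levels. Reads at 3' ends do not scale with the length of the mRNA, so levels were set side by side without a length correction. They are given as CPM, counts scaled by the library total in the usual unit. They are not counts of molecules, since reads copied by PCR need not be separate ones. Myc held 258 and 211 CPM in the 2 controls (1505 and 1359 counts). Egr1 held 107 and 90.6 CPM (625 and 583 counts). Edn1 held 27.0 and 21.5 CPM (158 and 138 counts). Klf4 held 10.95 and 15.54 CPM (64 and 100 counts). Fos held only 2.909 and 1.399 CPM (17 and 9 counts), so its values are the least precise. The order was the same in both controls and no neighbours in it overlapped, the closest being Edn1 and Klf4, whose means of 24.2 ± 3.95 and 13.2 ± 3.25 CPM (SD, n = 2) differed 1.83-fold. These differences in level were not tested. Among the 14673 loci with control reads, Myc lay at the 94.6th percentile and Fos at the 27.0th.

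After 1 h of actinomycin D each of the 5 mRNAs had lost over 50% of its reads. The share left was computed from counts divided by the factors in the file header, against both controls. Each window held at most 50% at 1 h, a level reached by 13.6% of the 11113 loci with at least 20 control counts, and the median locus held 92.9%. Since the genes were picked as short-lived, nothing is read from that difference. Intervals below are exact 95% limits. They cover counting error alone, because reads copied by PCR need not be separate molecules.

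Edn1 fell to 8 counts at 1 h and 3 at 2 h, with 0 at 4 and 8 h. It kept 5.66% (interval 2.42 to 11.3) at 1 h and 2.07% (0.424 to 6.11) at 2 h. At 8 h the 0 counts allow up to 2.47% with the header's factors, which is 40.4-fold below the controls. Here 3 counts in that library are the floor and the control counts are taken as exact. With the counting error of the controls included, the upper limit was 3.06%. The bound depends on the scaling: at the same floor it was 32.5-fold by library totals and 17.9-fold by TMM.

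Myc went from 90 counts at 1 h to 39, 36 and 36 at 2, 4 and 8 h. It kept 6.58% (5.28 to 8.12) at 1 h, 2.78% (1.97 to 3.81) at 2 h, 2.75% (1.92 to 3.82) at 4 h and 3.07% (2.15 to 4.26) at 8 h. The fall was therefore confined to the first 2 h in these libraries, and the last 3 intervals overlap. Whether the remainder was level or rose depends on the scaling: by library totals it was 2.85%, 3.06% and 3.81%, and by TMM 3.60%, 4.54% and 6.92%. Among 192 loci with at least 200 control counts and under 10% left at 2 h, Myc included, 29 (15.1%) were not lower at 8 h than at 2 h.

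Egr1 fell to 97 counts at 1 h, then to 78, 29 and 14. It kept 16.8% (13.5 to 20.7) at 1 h, 13.2% (10.3 to 16.6) at 2 h, 5.25% (3.501 to 7.580) at 4 h and 2.83% (1.54 to 4.77) at 8 h. It fell by 2.57 on the log2 scale in the first hour. With the header's factors it fell by 0.37 log2 per hour between 1 and 8 h, a shallower course. This rate depends on the scaling: the share left at 8 h was 3.52% by library totals and 6.38% by TMM. By TMM 17.4% was left at 1 h and 17.1% at 2 h. Unlike Myc, Egr1 went on falling between 2 and 8 h, with intervals that did not overlap.

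Klf4 kept 26 counts at 1 h and had 0 at 2, 4 and 8 h. Its share of 33.2% (21.1 to 50.4) at 1 h was the highest of the 5. The 0 counts at 2 h allow up to 3.74% at the same floor, 26.8-fold below the controls, or 4.65% with the controls' counting error. By library totals and by TMM that floor lay 26.1-fold and 20.7-fold below the controls. The interval at 1 h did not overlap that of Egr1, Myc or Edn1. Fos had 0 counts at every time. Its controls were low, so 0 counts at 1 h allow up to 24.2% at the floor and up to 31.9% with the counting error of the 26 control counts included.

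**Figure D1:**
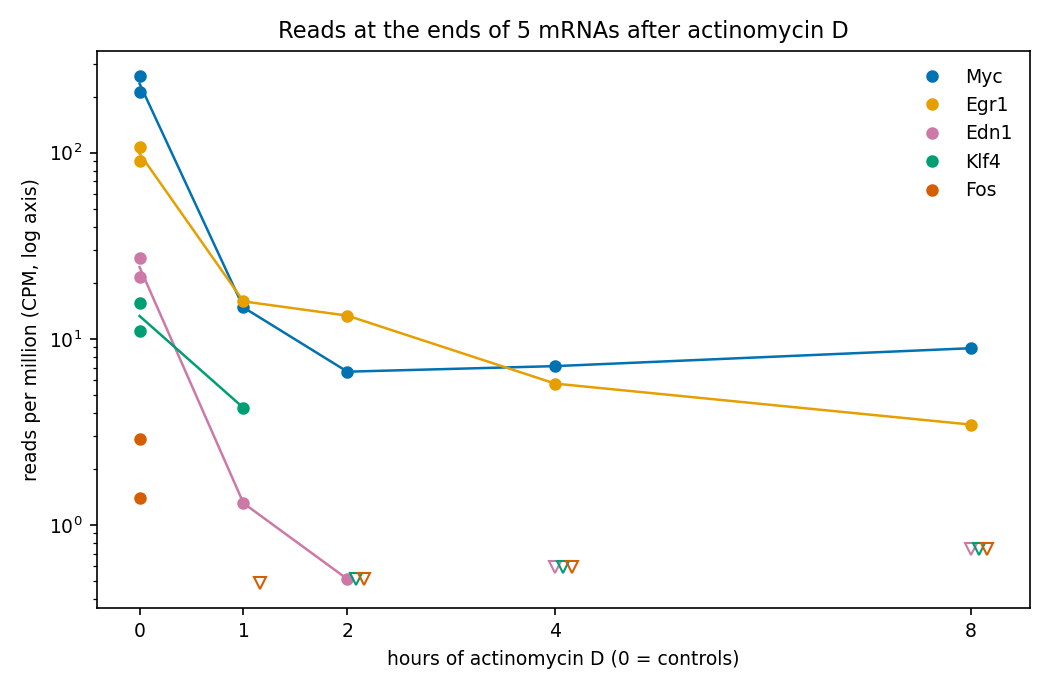
CPM at the ends of each mRNA (log axis) against hours of actinomycin D, with both controls at 0 h; lines join the control mean to each time with reads, and open triangles, set slightly apart, mark the level of 3 counts where a library held 0. Myc and Egr1 kept reads to 8 h, Edn1 to 2 h and Klf4 to 1 h, while Fos had 0 after 1 h.

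The half-life, if the first hour had a single rate, was 0.24 h for Edn1 (0.19 to 0.32), 0.25 h for Myc (0.24 to 0.28), 0.39 h for Egr1 (0.35 to 0.44) and 0.63 h for Klf4 (0.44 to 1.01). For Fos the upper limit by the same exact intervals was 0.61 h, and no lower limit was obtained. These are shorter than the first sampling time, so the course within that hour was not measured. A single exponential over all times gave 0.24 h for Edn1, 0.26 h for Myc, 0.44 h for Egr1 and 0.55 h for Klf4, and could not be fitted for Fos. A straight line through log counts with 0.5 added, which weights the late libraries, gave 1.01, 1.77, 1.64 and 1.09 h in the same order. Where Edn1 and Klf4 had 0 counts, only the added 0.5 entered the fit, so their values depend on it. The order of Edn1, Myc, Egr1 and Klf4 by the exponential did not hold for the log fit. Myc and Egr1, which had reads at every time, also changed places. In the authors' deposited table, the main end of each gene has a half-life of 0.227 (Edn1), 0.243 (Myc), 0.414 (Egr1), 0.512 (Klf4) and 0.0596 (Fos), read here in hours. For Fos that value rests on 26 control counts followed by 0. The deposited values are of 1 end, while the fits here are of whole windows. In 246 of 300 sites checked, the authors' rate also exceeded that of the exponential by 0.1 per hour, within 0.001.

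Myc is the only gene with 2 well-read ends. The 3' UTR holds 2 AATAAA hexamers, the usual poly(A) signal, shown in capitals because their spacing can be set beside that of the 2 ends; the second lies at the end of the annotated transcript.
Myc first: gtaaataactttAATAAAacgtttataaca
Myc second: tttttagaaaaaAATAAAataatt
The hexamers are 112 nt apart and the 2 ends 105 nt apart. No site was placed on the sequence, since the sites are in mm9.

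The proximal Myc end held 284 and 200 counts in the controls and 19, 19, 10 and 15 counts at 1, 2, 4 and 8 h. The distal end held 1221 and 1159 counts, then 71, 20, 26 and 21. As a share of Myc reads, the proximal end made up 18.9% in control 1 and 14.7% in control 2. After the drug it made up 21.1% at 1 h, 48.7% at 2 h (Wilson 95% interval 33.9 to 63.8), 27.8% at 4 h (15.8 to 44.0) and 41.7% at 8 h (27.1 to 57.8). The intervals at 2 and 8 h lay above those of both controls, and those at 1 and 4 h overlapped both. The intervals of controls 1 and 2, 16.97 to 20.93 and 12.93 to 16.70, did not overlap each other. Intervals of this kind thus separate even untreated libraries. With a single library per time, whether the drug shifted the share was not tested. At 2 h the distal end kept 1.72% (1.05 to 2.66) and the proximal end 8.02% (4.78 to 12.7) of its control level. The late values rest on 36 to 39 reads.

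The gradient placed the 5 mRNAs differently, and this was not used to pick them. The file names each fraction by a ribosome number, 0, 1, 2.5, 4.5, 7.5 or 12, and counts were divided by the header's factors to give the share of an mRNA in each. The median of the 11135 loci with at least 60 counts over the fractions was 3.95%, 6.85%, 19.3%, 17.8%, 16.99% and 24.8% in that order. Each fraction is 1 library, so differences between profiles have no replicate check.

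Fos and Egr1, both transcription factors induced first in a growth response, lay in light polysomes. Fos held 28, 17, 92, 93, 47 and 36 counts from the lightest to the heaviest fraction, with a peak of 38.1% of scaled counts at 2.5 ribosomes. Egr1 held 650, 966, 2402, 2880, 1260 and 1207 counts, with 33.99% at 2.5 and 26.1% at 4.5 ribosomes. Their 2 profiles differed in 7.57% of the scaled counts, the smallest value among the 10 pairs of these genes, against 40.8% for Fos and Myc. In the 2 heaviest fractions together Fos held 19.7% and Egr1 20.1%. In the ribosome-free fraction they held 12.4% and 9.86%, higher than 96.7% and 94.1% of loci or equal to them. By CPM, without the header's factors, both were highest in the ribosome-free fraction, at 16.8 CPM for Fos and 391 CPM for Egr1.

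Myc lay in heavier polysomes. It held 164, 334, 782, 3704, 4882 and 3069 counts, with 32.1% at 7.5 ribosomes and 55.8% in the 2 heaviest fractions. Only 2.18% was ribosome-free. Edn1 held 42, 36, 120, 567, 318 and 159 counts and had the sharpest peak of the 5, with 44.2% at 4.5 ribosomes. Klf4 held 20, 30, 83, 121, 171 and 135 counts and was spread over the 4 heavier fractions, with between 20.5% and 24.0% in each.

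**Figure D2:**
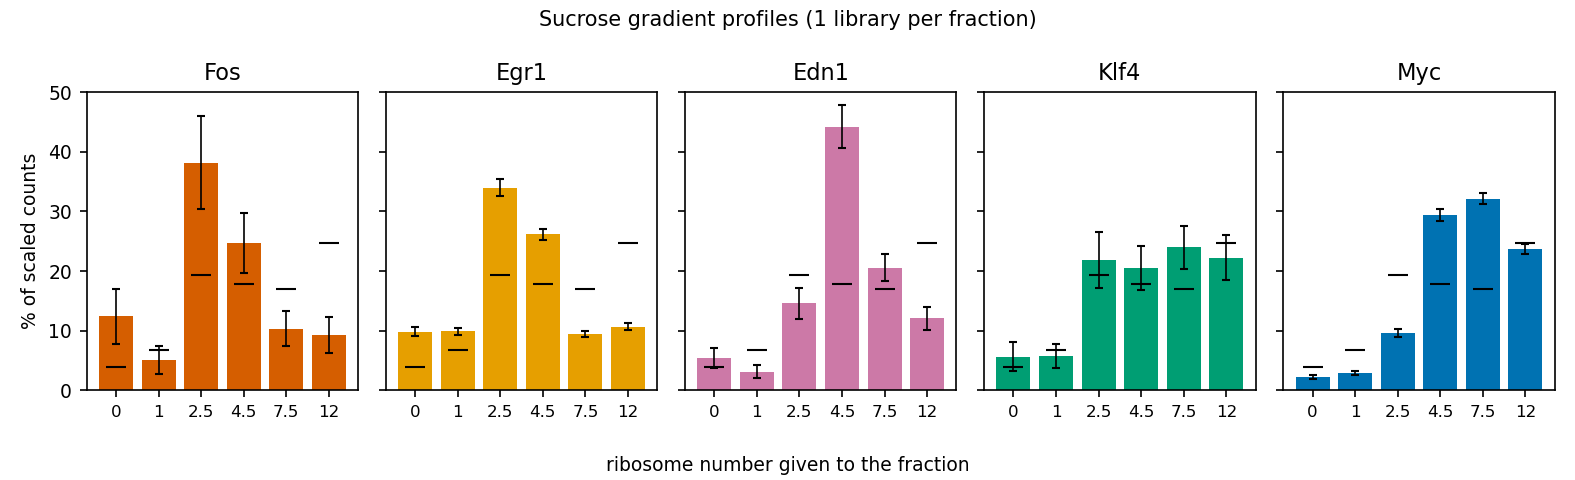
Share of each mRNA's scaled counts in the 6 fractions, named by ribosome number; bars are 1 library each, error bars the 95% counting range, and black dashes the median of 11135 loci. Fos and Egr1 peak at 2.5 ribosomes, Edn1 at 4.5 and Myc at 7.5, while Klf4 is flat from 2.5 to 12.

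Weighted by the ribosome number of the fraction, the mean was 4.01 ± 0.18 (counting SE) for Fos, 4.11 ± 0.03 for Egr1, 5.37 ± 0.09 for Edn1, 5.99 ± 0.17 for Klf4 and 6.84 ± 0.03 for Myc. Fos and Egr1 did not differ beyond counting error, and the other neighbours did. Counting error leaves out differences between libraries, and without the heaviest fraction Edn1 lay above Klf4, at 4.46 and 4.28. The median locus had 6.26 and the middle 50% lay between 5.09 and 7.35, so Fos and Egr1 were below that range and the other 3 within it. Coding length differs between the genes, with 202 codons for Edn1, 380 for Fos, 454 for Myc, 483 for Klf4 and 533 for Egr1 in the longest annotated coding region. Per 100 codons, the mean was 2.66 ribosomes for Edn1, 1.51 for Myc, 1.24 for Klf4, 1.05 for Fos and 0.772 for Egr1. By library totals in place of the header's factors the means were lower, at 2.96 for Fos, 3.09 for Egr1, 4.59 for Edn1, 4.95 for Klf4 and 6.20 for Myc, in the same order.

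The trend over the fractions was tested by edgeR's quasi-likelihood test as a slope on fraction number, relative to the rest of the library, with Benjamini-Hochberg adjustment over the 11135 loci tested. Of the 5 loci, all of which entered the fit, 0 passed an adjusted p of 0.05, against 5.4% of all loci (0.53% towards the heavy side and 4.87% towards the light side). At an unadjusted p under 0.05 there were 2, Fos and Egr1, against 18.2% of loci. Fos had a slope of -0.50 ± 0.18 log2 per fraction (SE, edgeR adjusted p = 0.111, range over the alternatives 0.0543 to 0.881). Egr1 had a slope of -0.47 ± 0.21 (edgeR adjusted p = 0.232, range 0.0220 to 0.957). Myc had 0.40 ± 0.22 (edgeR adjusted p = 0.328, range 0.0143 to 0.662). Klf4 and Edn1 had slopes of -0.01 ± 0.16 and -0.00 ± 0.20 (edgeR adjusted p = 0.976 and 0.998), with 95% intervals from -0.34 to 0.31 and from -0.40 to 0.40. A straight slope does not register a peak in the middle fractions, such as that of Edn1 at 4.5 ribosomes.

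Both calls outside the main test came from a change of tool or scaling. DESeq2 called 1 of the 5, Egr1 (slope -0.47, DESeq2 adjusted p = 0.0220), against 9.3% of loci, with 1.33% towards the heavy side and 7.97% towards the light side. With the header's factors edgeR called Myc (slope 0.88, edgeR adjusted p = 0.0143), against 41.3% of loci (40.2% towards the heavy side and 1.09% towards the light side). Those factors move the median slope of all loci from 0.05 to 0.50 log2 per fraction. Against that median, Fos lay at -0.54 with TMM and -0.55 with the header's factors, Egr1 at -0.51 and -0.52, and Myc at 0.35 and 0.39. Without the median subtracted, Fos and Egr1 had slopes of -0.05 and -0.02 with the header's factors.

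**Figure D3:**
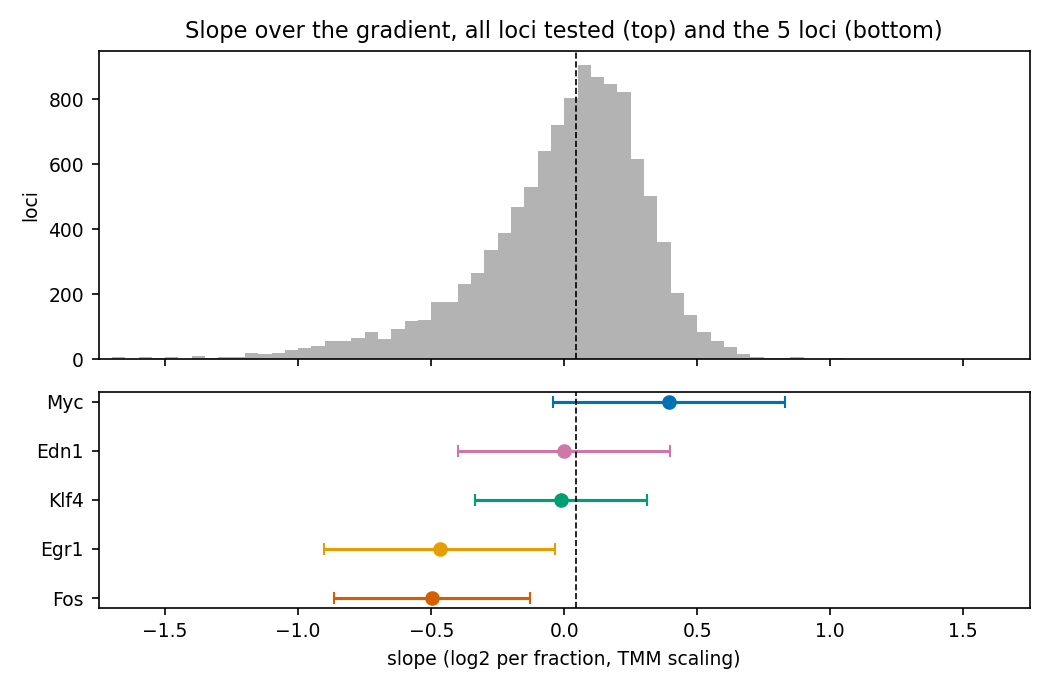
Slopes over the 6 fractions in log2 per fraction with TMM scaling: a histogram of all loci tested (top; 9 loci lie outside the plotted range) and the 5 loci with 95% intervals from edgeR (bottom); the dashed line is the median of all loci. Fos and Egr1 lie to the left of the median and Myc to the right, and none passed the adjusted threshold.

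The 2 Myc ends also differed in their distribution over the gradient, without passing the adjusted threshold. The proximal end made up 50 of 164 reads (30.5%, Wilson interval 24.0 to 37.9) in the ribosome-free fraction, 18.9% and 17.9% in the fractions of 1 and 2.5 ribosomes, and 12.4%, 11.2% and 13.6% in the 3 heavier ones. The slope of the distal end exceeded that of the proximal end by 0.28 ± 0.07 log2 per fraction over the 6 libraries in a fit with a term per library (edgeR unadjusted p = 0.00514, adjusted p over 4283 pairs = 0.166, range over the alternatives 0.0659 to 0.393). Without the ribosome-free library the difference was 0.17. The same fit for the 2 Egr1 ends gave 0.10 ± 0.08 (edgeR adjusted p = 0.741), with a 95% interval from -0.08 to 0.27. Of these 2 pairs 0 were called by edgeR, against 0.35% of all pairs (in 0.304% the distal end was the heavier and in 0.0467% the lighter), and 1 of 2 had an unadjusted p under 0.05, against 13% of all pairs. DESeq2 called 0 of 2, against 1.24% (0.981% heavier and 0.257% lighter). Edn1 had too few proximal reads for a pair.

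**Figure D4:**
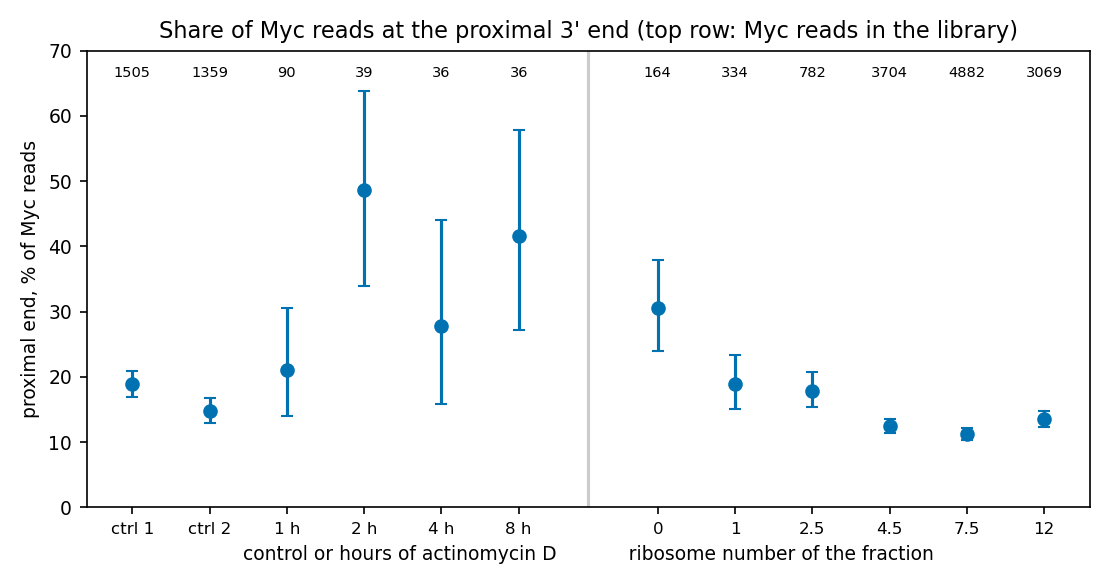
Share of Myc reads at the proximal end in each of the 12 libraries, with Wilson 95% intervals; the top row gives the number of Myc reads. The share was 14.7% to 18.9% in the controls, 21.1%, 48.7%, 27.8% and 41.7% at 1, 2, 4 and 8 h, and ran from 30.5% in the ribosome-free fraction to 11.2% at 7.5 ribosomes.

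Fos and Egr1 were more abundant in the gradient libraries than in the controls. This comparison was chosen after the values were seen and has no test. Summed over the fractions with the header's factors, Fos made up 8.01 CPM against a mean of 2.15 CPM in the controls, a ratio of 3.72. The Fos controls differed, and the ratio was 5.73 without control 1 and 2.75 without control 2. Every one of its 6 fractions, from 3.11 to 16.8 CPM, lay above both controls. By raw totals its pooled ratio was 3.38 (exact interval 2.26 to 5.26). Egr1 made up 235 CPM against 98.8 CPM, a ratio of 2.37, and 5 of its 6 fractions lay above both controls. Among 10696 loci the ratio was higher for 36 loci than for Fos and for 375 than for Egr1, and the median locus had 0.914. Myc, Edn1 and Klf4 had ratios of 1.14, 1.13 and 0.949. With 1 control left out in turn, Egr1 had 2.19 to 2.59, and Klf4 lay on both sides of 1, at 0.809 without control 1 and 1.15 without control 2. The control RNA was extracted with trizol and the gradient RNA came from sucrose fractions, per the labels' protocols. A difference in level between gradient and control samples therefore cannot be told apart from one in preparation.

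**Figure D5:**
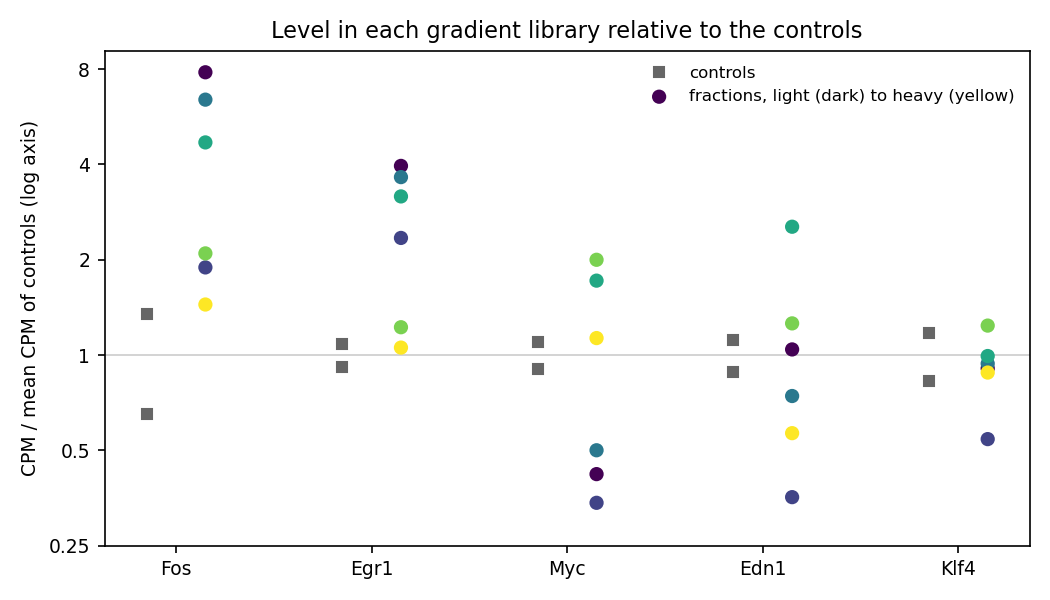
CPM in each library divided by the mean CPM of the 2 controls (log axis), for the controls (squares) and the 6 fractions (circles, dark for light and yellow for heavy fractions). All 6 Fos fractions and 5 of 6 Egr1 fractions lie above both controls, while Myc, Edn1 and Klf4 fractions lie on both sides of the controls.

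Loci with the most similar course were named by position, since the table holds no names. Likeness was the Euclidean distance between profiles of log2(CPM + 1) centred on the controls, over the 4 actinomycin D libraries and 8643 other loci with at least 100 control counts. The nearest to Myc lay on chromosome 1 (minus strand, ends from 156943497 to 156944657), with 361 and 308 CPM in the controls and 22.9, 13.8, 10.7 and 12.6 CPM at 1, 2, 4 and 8 h. In CPM it was not lower at 8 h than at 4 h, as for Myc, but unlike Myc it was lower at 8 h than at 2 h. It was chosen on these same 4 libraries, so nothing is read from a likeness in them. The nearest to Edn1 were 2 neighbouring loci on the plus strand of chromosome 7, at 28262381 and from 28275329 to 28276765. The first of them held 33.4 and 40.1 CPM in the controls and 2.29 CPM at 1 h. For the gradient, likeness was the distance between shares over the 6 fractions. The nearest to Egr1, on chromosome 19 (plus strand, 3717879), had a mean of 4.33 ribosomes, and the nearest to Fos, on chromosome 4 (plus strand, 43460660 to 43460958), had 4.19. The Fos neighbour kept 28.8 CPM at 1 h, from 41.6 and 39.9 in the controls.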

How the data were processed

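The values used are raw read counts per poly(A) site from 12 libraries, deposited by the authors with mm9 positions and 1 factor per library to divide by, per the file headers; sites were annotated from 3P-Seq. Bowtie, of a version not given in the sources used here, was used, per the submitters' processing notes. The deposited half-life and ribosomes per mRNA are the authors' own score per site, whose fit is not stated in the file headers. Among 300 sites drawn at random, each read at least 20 times in every decay library and with a half-life under 50, 246 showed one relation: the rate behind the half-life exceeded that of an exponential fit in hours by 0.1, within 0.001. Matching the fraction columns to fractions 1 to 6 by rising ribosome number is an assumption. Unused per-sample columns numbered 0. The 2 3P-Seq libraries were not analysed here.

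Ends within 2000 nt of the next on a strand formed 1 locus. Each window was 1 locus. Fits used R 4.3.3, edgeR 4.0.16 (quasi-likelihood, robust, TMM) and DESeq2 1.42.0, with at least 60 counts over the 6 fractions, or per end for pairs. The edgeR fits were tested on simulated data with effects larger than those of the 5 genes in the main tests, so effects of their size were not examined. Shares left, half-lives and means used SciPy 1.17.1. Per library the floor for 0 is 3 counts, and intervals cover counting error only. Transcript features came from GENCODE M21 (mm10), used for sequence and length, not position. The genes named are the 5 of the rule, with the loci most like them. The genes, windows and lists were chosen with earlier results of these data known. Settings tried were RLE, the header's factors, library totals, DESeq2, count minimums, other covariates, the main end alone and leaving out each library.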

Additional observations from a re-analysis of the deposited data

How the results depend on the processing

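Samples could not be paired, because every time and every fraction is a single library. Only the 2 ends of a locus were compared within libraries. Loci called heavier and lighter over the gradient numbered 59 and 542, 4476 and 121 with the header's factors, 148 and 887 with DESeq2, 189 and 893 with no filter, and 122 heavier on ribosome number; without each fraction they ran from 10 to 472 and from 184 to 907. Pairs of ends with a heavier or lighter distal end numbered 13 and 2, 42 and 11 with DESeq2, 8 and 0 with at least 300 counts per end (245 and 113 at an unadjusted p under 0.05), and 0 to 18 and 0 to 6 without each fraction.

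Egr1 passed with DESeq2 (-0.47) and Myc with the header's factors (0.88). Klf4 and Edn1, near 0, changed sign to 0.44 and 0.50 with the header's factors and to 0.024 and 0.035 with no filter. Without each fraction, slopes ran from -0.60 to -0.39 (Fos), -0.51 to -0.38 (Egr1), 0.31 to 0.56 (Myc), -0.066 to 0.086 (Klf4) and -0.12 to 0.22 (Edn1). Klf4 was above 0 without fraction 1 (0.086) or 6 (0.068), and so was Edn1 (0.14 and 0.22). The Myc end difference ran from 0.17 to 0.41 and that of Egr1 from 0.02 to 0.17.

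The mean ribosome number by library totals was 2.96 (Fos), 3.09 (Egr1), 6.20 (Myc), 4.95 (Klf4) and 4.59 (Edn1). Without each fraction it ran from 3.19 to 4.94, 3.17 to 4.95, 5.24 to 7.82, 4.28 to 6.97 and 4.46 to 6.06 in that order. The log-linear half-life, with 0.5 added to each count, was 1.64 h (Egr1), 1.77 h (Myc), 1.09 h (Klf4) and 1.01 h (Edn1). Without each library the exponential half-life ran from 0.39 to 0.71, 0.25 to 0.39, 0.50 to 0.63 and 0.24 to 0.36 h, the highest for Egr1, Myc and Edn1 coming without the 1 h library; Klf4 could not be fitted without it, since its other counts after the drug are 0. The percent left at 1 h ran from 15.68 to 18.04 (Egr1), 6.04 to 7.18 (Myc), 28.2 to 41.0 (Klf4) and 5.11 to 6.29 (Edn1) without either control. The ratio of the gradient to the controls by raw totals, a setting chosen after seeing the data, was 3.32 (Fos), 2.17 (Egr1), 1.26 (Myc), 1.17 (Edn1) and 0.967 (Klf4). The ratio with the header's factors was also taken with 1 control left out in turn, again chosen after seeing the data. In the same order of genes this ratio ran from 2.75 to 5.73, 2.19 to 2.59, 1.04 to 1.27, 1.01 to 1.27 and 0.809 to 1.15. The cause of these moves was not tested. Depth limits Fos most, with 26 control counts, and the late Myc values.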
